A study of Canis lupus familiaris with 30 samples.

Results

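Glycolysis and hypoxia response genes were followed across canine thyroid tumors. The members were chosen by symbol, from a list of 39: the enzymes that turn glucose into pyruvate and lactate, the kinases and subunits of the pyruvate dehydrogenase complex, the hypoxia-inducible factor (HIF) subunits with their regulators, and 6 further HIF targets. Of these 39, 33 were found among the 30424 genes of the count table and 6 were not in the table under their symbol (*ALDOA*, *PGAM1*, *PKM*, *LDHA*, *PDHB* and *BNIP3L*), so the step from fructose bisphosphate to pyruvate and the step to lactate were each seen only in part. All 33 members had at least 10 counts in at least 5 tumors.

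RNA came from 30 primary thyroid tumors of dogs and was sequenced from total RNA libraries after ribosomal RNA removal, 1 library per tumor. The labels describe every sample as thyroid gland tumor tissue and give no histologic class, treatment, age or normal sample, so no groups were compared. Each tumor is named here by its library name. These are bulk tumors, in which fewer cells of a type and less RNA per cell cannot be told apart.

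Glycolysis splits glucose into pyruvate with a net yield of ATP. Pyruvate then enters the mitochondria through the pyruvate dehydrogenase complex or is reduced to lactate. When oxygen is scarce, the prolyl hydroxylases (EGLN proteins) no longer mark the HIF alpha subunits for VHL, the alpha subunits accumulate as proteins, and transcription of many glycolytic genes increases. The control of HIF lies largely in protein stability, which counts of RNA do not measure.

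Between 12288945 and 45148677 reads were counted per tumor, with a median of 25569678. A summed marker level is log2 of the summed normalized counts plus 1, so the most abundant marker weighs most. The summed level of 7 follicular cell markers ranged from 7.94 in TC1088 to 22.74 in TC1869, where thyroglobulin (*TG*) alone was at 22.65. In TC1088 *TG* had 12 counts. The summed level of 5 C-cell markers was between 17.75 and 19.40 in TC1020, TC1473, TC1601, TC1936 and TC2289 and at most 13.10 in the other 25 tumors. These 5 were not alike in each marker. *CALCA* was at 18.70 in TC1020, 17.78 in TC1473, 16.80 in TC1601 and 19.24 in TC1936. In TC2289 it was at 6.94, with 95 counts, below the 12.90 of TC22, the highest of the other 25. A Ward clustering on 763 variable genes, none of them a member, put the 5 tumors with the high C-cell marker sum on a branch of their own. Relations between genes were fitted over the 25 tumors of the larger branch, since separate clusters should not be pooled. The branch was computed from the data, is not given in the labels, and was used only to keep the clusters apart in the fits. TC538 stood apart, with the fewest reads, the smallest size factor (0.279, against 0.713 to 1.62 in the other tumors), 13515 genes with at least 10 counts and 37.9% of its counts on genes without a symbol, against a median of 21.6%. That share was higher still in TC2289 (42.0%), which is not among the 25 tumors fitted. Since TC538 stood apart, the main edgeR fit on each covariate was repeated without TC538.

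**Figure D1:**
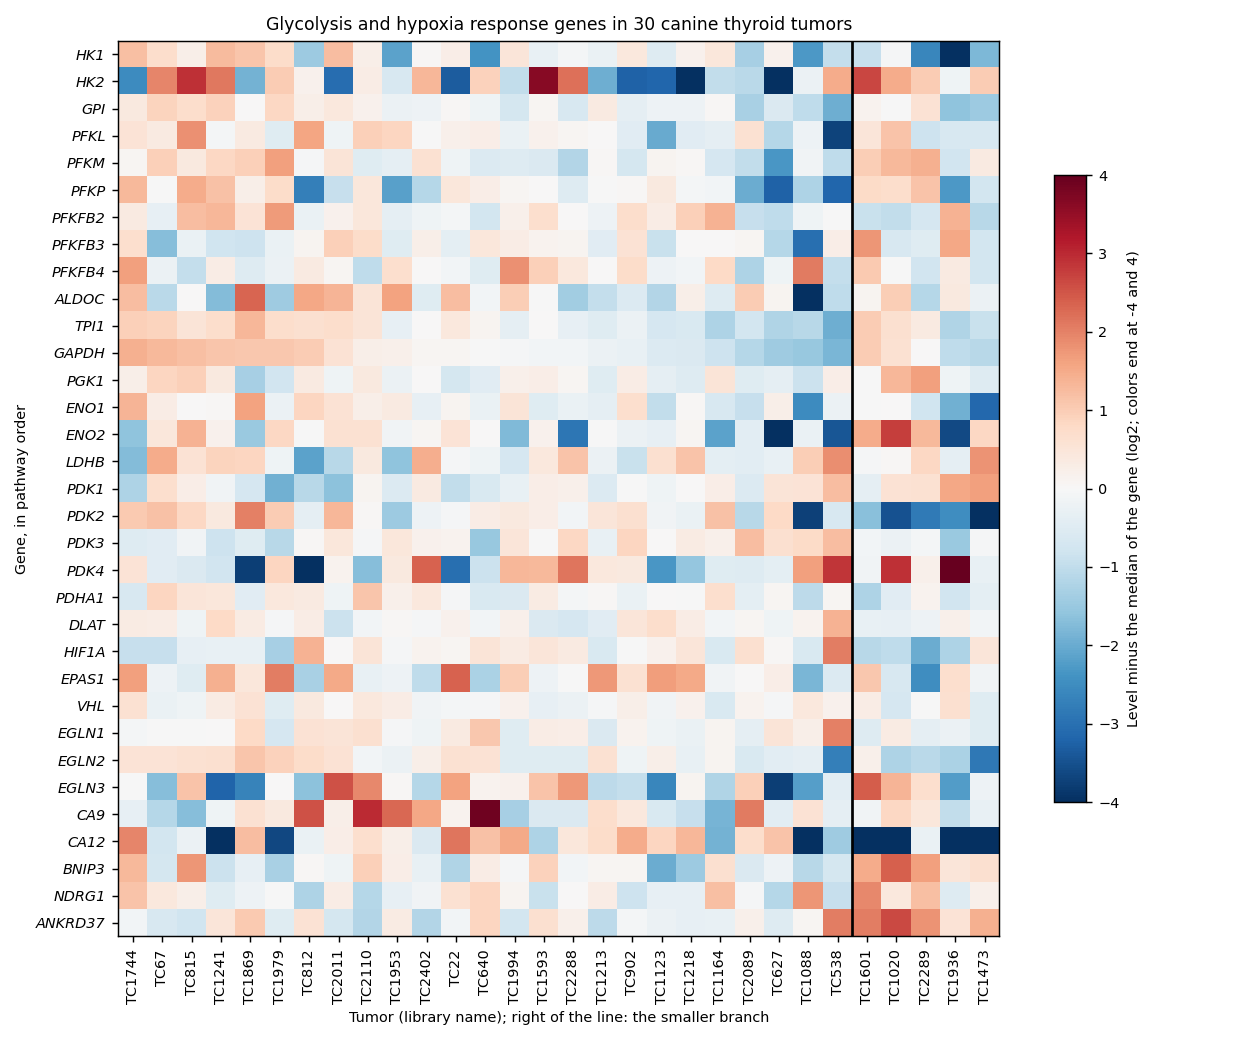
Level of each of the 33 genes (rows, in pathway order) in each of the 30 tumors (columns, named by library) as the difference from the gene's own median, on a log2 scale with colors ending at -4 and 4. Columns run from high to low *GAPDH* within each branch of the clustering, and TC538 is the last of the 25 tumors left of the line, with blue cells at *GAPDH*, *TPI1*, *GPI* and *PFKL* and red cells at *HIF1A*, *EGLN1* and *LDHB*.

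A level is log2(normalized count + 1), where the size factor of the tumor scales the count. Spread over the 30 tumors was described by the SD of the level. Of the 33 members, 15 (45.5%) had an SD above 1, and 45.7% of the 18711 genes that passed the count filter did. The median SD was 0.95 for the members and 0.95 for all these genes. Just inside this limit was *ANKRD37* (SD 1.001) and just outside it *ENO1* (SD 0.998). The members' share was thus near that of all genes, and the members with wide spread were particular isoforms and targets. Levels are compared within a gene only, because no transcript lengths were used.

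The hexokinases trap glucose in the cell as glucose 6-phosphate. *HK1*, the form found in most tissues, ran from 8.28 in TC1936 through a median of 12.45 to 13.71 in TC1241. *HK2*, the form of muscle and of many tumors, ran from 2.41 in TC1218, where it had 7 counts, through a median of 6.95 to 10.58 in TC1593, a 289-fold spread on the scale of the normalized count plus 1. Its SD of 2.26 was higher than that of 93.9% of the genes. The 2 highest *HK2* levels were in TC1593 and TC815 (9.86), and the lowest after TC1218 was in TC627 (2.58, 4 counts). The difference between *HK1* and *HK2* went from 1.49 in TC1936 to 10.22 in TC1218. Over the 25 tumors of the larger branch the levels of both genes showed little relation (Pearson's r -0.15, permutation p = 0.467, Spearman's rho -0.12, permutation p = 0.559).

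Phosphofructokinase commits sugar to glycolysis, and its liver, muscle and platelet forms are separate genes. *PFKL* was lowest in TC538 (7.37), had a median of 11.07 and was highest in TC815 (12.89). *PFKP* was lowest in TC627 (8.19) and TC538 (8.26), had a median of 11.43 and was also highest in TC815 (12.92). *PFKM* had a narrower spread, from 9.06 in TC627 through 11.40 to 13.02 in TC1979. The balance of the platelet and liver forms moved over the widest range of the phosphofructokinases, since the difference of *PFKP* and *PFKL* was -3.98 in TC812 and 2.75 in TC1123. The PFKFB enzymes make fructose 2,6-bisphosphate, the activator of phosphofructokinase. *PFKFB3* was highest in TC1601 (13.24) and TC1936 (13.03), had a median of 11.49 and was lowest in TC1088 (8.48), which held the highest *PFKFB4* (10.16, median 8.08). *PFKFB2* stayed between 9.90 and 12.73. *GPI*, which precedes phosphofructokinase, stayed between 11.03 and 13.91.

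In the lower part of the pathway, *ALDOC*, the brain form of aldolase, reached 12.54 in TC1869, had a median of 10.22 and was at 4.70 in TC1088, with 25 counts. The next lowest tumor, TC1241, was at 8.49. *TPI1* (10.44 to 13.71), *GAPDH* (12.13 to 15.39) and *PGK1* (11.16 to 14.14), which follow aldolase, had SDs from 0.65 to 0.92. *PGK1* was highest in TC2289 (14.14) and TC1020 (13.81). *ENO1*, the enolase of most tissues, was lowest in TC1473 (9.90) and TC1088 (10.54) and highest in TC1869 (14.67), with a median of 13.05. *ENO2*, the neuronal enolase, had a median of 11.04 and was highest in TC1020 (13.80), TC1601 (12.54), TC815 (12.44), TC2289 (12.34) and TC1473 (11.87). It was lowest in TC627 (6.58), and the next lowest was TC1936 (7.42). Of the 5 tumors with the high C-cell marker sum, 4 were thus among the 5 highest for *ENO2*, and TC1936, which had the highest sum (19.40), was next to the bottom. *LDHB*, the lactate dehydrogenase subunit of heart, ran from 9.87 in TC812 through 12.01 to 13.88 in TC538.

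The pyruvate dehydrogenase kinases shut off the entry of pyruvate into the mitochondria. Their 4 genes had different patterns. *PDK1*, a HIF target, was highest in TC1473 (12.13), TC1936 (12.03) and TC538 (11.72), had a median of 10.48 and was lowest in TC1979 (8.56). *PDK2* ran from 7.24 through 11.40 to 13.42, and its 6 lowest tumors were TC1473 (7.24), TC1088 (7.67), TC1020 (7.90), TC2289 (8.56), TC1936 (8.91) and TC1601 (9.73). These are the 5 tumors with the high C-cell marker sum together with TC1088, the tumor with the lowest follicular cell marker sum (7.94). *PDK4*, known to respond to fasting and to glucocorticoids, was highest in TC1936 (13.66), TC1020 (12.55) and TC538 (12.49), had a median of 9.63 and was at 4.12 in TC812, with 18 counts. *PDK3* stayed between 7.62 and 10.36. The difference of *PDK1* and *PDK2* was -3.90 in TC2011 and 4.89 in TC1473. The members that encode the complex itself varied little. *PDHA1*, the subunit these kinases phosphorylate, stayed between 10.25 and 12.58 (SD 0.54) and *DLAT*, a core subunit to which they bind, between 8.98 and 11.24 (SD 0.45, above that of 4.44% of the genes), with TC538 at the top of *DLAT*.

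**Figure D2:**
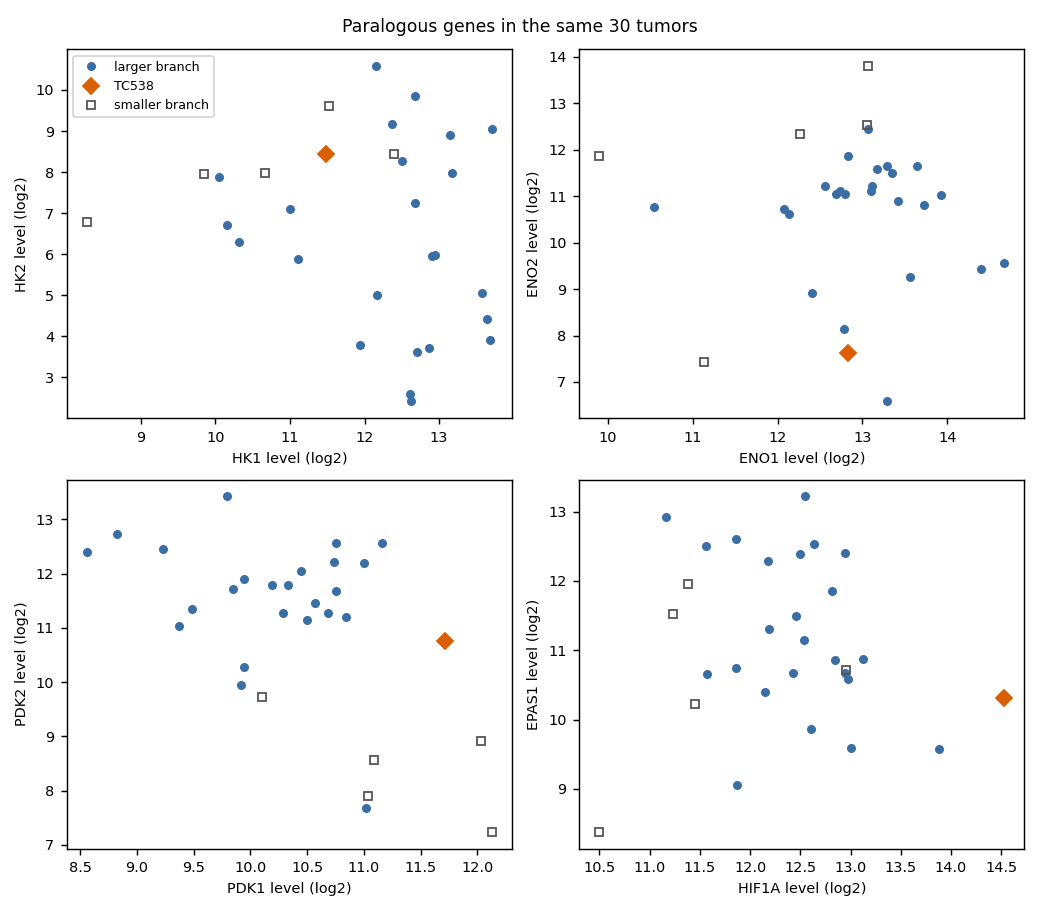
Levels of *HK2* against *HK1*, *ENO2* against *ENO1*, *PDK2* against *PDK1* and *EPAS1* against *HIF1A* in the 30 tumors, log2(normalized count + 1). Circles are the larger branch, open squares the smaller branch and the diamond TC538. In the *PDK1* and *PDK2* panel the squares and 1 circle, TC1088, lie at a *PDK2* level of 9.73 or lower, and the other tumors lie higher.

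Among the regulators of HIF, *VHL* and *EGLN1* had narrow spreads and *EGLN3* a wide one. *VHL*, the ubiquitin ligase subunit that removes HIF alpha, ranged from 8.37 through 9.05 to 9.67. Its SD of 0.35 was above that of 0.828% of the genes. *EGLN1*, the main oxygen sensor, ran from 10.37 through 11.05 to 13.06 and was highest in TC538 (13.06) and TC640 (12.11). *EGLN2* was lowest in TC1473 (7.95) and TC538 (8.06), with a median of 10.80, so that the difference of *EGLN1* and *EGLN2* was 5.00 in TC538 and -1.36 in TC1979. *EGLN3*, which is itself induced by HIF, had the largest spread of the 3, from 3.75 in TC627 through 7.53 to 10.06 in TC2011. *HIF1A* was highest in TC538 (14.53) and TC812 (13.88), had a median of 12.48 and was lowest in TC2289 (10.50), TC1979 (11.16), TC1936 (11.23), TC1601 (11.38) and TC1020 (11.45). *EPAS1*, which encodes HIF2 alpha, was highest in TC22 (13.22), had a median of 10.87 and was lowest in TC2289 (8.38).

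Among the targets, the membrane carbonic anhydrases *CA9* and *CA12* showed little relation to each other (r 0.10, permutation p = 0.653, rho 0.04, permutation p = 0.840, 25 tumors). *CA9* had a median of 6.32, with the highest levels in TC640 (10.21) and TC2110 (9.30) and the lowest in TC1164 (4.44). *CA12* had the largest SD of the members, 2.69, above that of 97.1% of the genes. It ran from 3.00 in TC1088, with 7 counts, through 10.78 to 12.92 in TC22, and after TC1088 the lowest tumors were TC1241 (3.81), TC1020 (5.81), TC1936 (6.21), TC1473 (6.27) and TC1601 (6.68). TC2289, the other tumor with a high C-cell marker sum, had 10.52. *BNIP3*, a mitophagy receptor, was highest in TC1020 (12.54), TC815 (11.92), TC2289 (11.81) and TC1601 (11.66) and lowest in TC1123 (8.17), with a median of 10.16. *ANKRD37* was highest in TC1020 (9.58), TC538 (9.00), TC1601 (9.00), TC2289 (8.74) and TC1473 (8.37), with a median of 6.96 and a lowest level of 5.78 in TC2110. *NDRG1*, a stress-response gene, ran from 7.25 in TC812 through 8.50 to 10.41 in TC1601.

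Whether these genes followed hypoxia response transcripts outside the list was tested with an index, the mean z-score of 11 other HIF targets, among them *VEGFA*, *ADM* and *SLC2A1*. How closely the 11 genes moved with each other was not computed. The slopes therefore describe this mean only and not a shared hypoxia response. The index ran from -0.68 in TC812 to 1.14 in TC538. Each gene's slope is its log2 change per SD of the index over the 25 tumors (edgeR, quasi-likelihood test, Benjamini-Hochberg adjusted over all genes). No member passed an adjusted p of 0.05 (0 of 33), where 18.0% of all 18095 genes tested did, 10.2% rising and 7.79% falling. At an unadjusted p below 0.05 there were 6 members, and 34.3% of all genes. DESeq2 called 1 member, *EGLN2*. The median slope was -0.02 for the members and -0.04 for all genes. The 6 were *HK2* (0.86 ± 0.35 SE, adjusted p = 0.0837), *PDK4* (0.62 ± 0.25, adjusted p = 0.0793), *BNIP3* (0.40 ± 0.18, adjusted p = 0.109), *PDK1* (0.29 ± 0.12, adjusted p = 0.100), *EGLN1* (0.23 ± 0.09, adjusted p = 0.0865) and *EGLN2* (-0.37 ± 0.15, adjusted p = 0.0798).

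Without TC538 the share of all genes called was 0.211%, 38 of 18048, and again 0 members were called, with 2 at an unadjusted p below 0.05. These were *BNIP3* (0.47 ± 0.15, adjusted p = 0.156) and *HK2* (0.77 ± 0.31, adjusted p = 0.255), whose slopes changed little. The slope of *EGLN1* was then -0.03 ± 0.10. *CA9*, widely used as a marker of hypoxia, had a slope of -0.56 ± 0.37 with TC538 and -0.42 ± 0.38 without it. Of the 17 other pathway genes tested, 1 (*PDP2*) passed with TC538, falling, and 0 without it. Macrophage markers moved with the index as well, *CD163* and *MSR1* rising among the 4 tested with TC538 and 0 of 4 without it, and their part in the result was not tested.

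A member was also used as the yardstick. *PGK1*, a single-copy step of the pathway and a HIF target, ranged over the 25 tumors from 11.16 in TC1869 to 13.45 in TC815. On its level 0 of 32 other members passed in edgeR, and 0.0552% of all genes did (10 of 18105). Without TC538 0 members and 0.00554% of all genes (1 of 18058) passed. At an unadjusted p below 0.05 there were 3 members, *BNIP3* (0.50 ± 0.14, adjusted p = 0.206), *PDHA1* (0.28 ± 0.09, adjusted p = 0.325) and *HK2* (1.06 ± 0.37, adjusted p = 0.372), and 8.86% of all genes. DESeq2 called 0. *BNIP3* and *HK2* had positive slopes on both yardsticks, neither past the threshold. They were picked from the members at an unadjusted p below 0.05. The share of such members was near that of all genes on *PGK1* and below it on the index.

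The transcript of *HIF1A* itself gave calls that rested on TC538. Over the 25 tumors 6 of 32 members passed (18.8%), beside 14.5% of all genes. *EGLN1* (0.38 ± 0.09 log2 per SD of *HIF1A*, adjusted p = 0.00505) and *ANKRD37* (0.41 ± 0.12, adjusted p = 0.0252) rose, where 10.7% of all genes rose. *PFKM* (-0.44 ± 0.13, adjusted p = 0.0244), *NDRG1* (-0.48 ± 0.15, adjusted p = 0.0269), *GPI* (-0.38 ± 0.12, adjusted p = 0.0295) and *PFKP* (-0.73 ± 0.25, adjusted p = 0.0459) fell, where 3.82% of all genes fell. Without TC538, the tumor with the highest *HIF1A* level, 0 members and 0 genes passed in edgeR, with 8 members and 2309 genes at an unadjusted p below 0.05. DESeq2 was not run without it. *NDRG1* (-0.44 ± 0.14) and *PFKM* (-0.38 ± 0.13) then kept most of their slope, while that of *EGLN1* was 0.19 ± 0.09 and that of *ANKRD37* 0.18 ± 0.13. *CA9* had the steepest positive slope in both fits, 0.82 ± 0.33 (adjusted p = 0.0904) and 0.84 ± 0.27 (adjusted p = 0.183). The macrophage marker *MSR1* rose and the endothelial marker *VWF* fell with *HIF1A* in the fit with TC538, and neither passed without it. Of the 11 index genes, *P4HA1* (adjusted p = 0.0194) and *ERO1A* (adjusted p = 0.0149) rose in the fit with TC538. Both failed to pass without TC538.

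**Figure D3:**
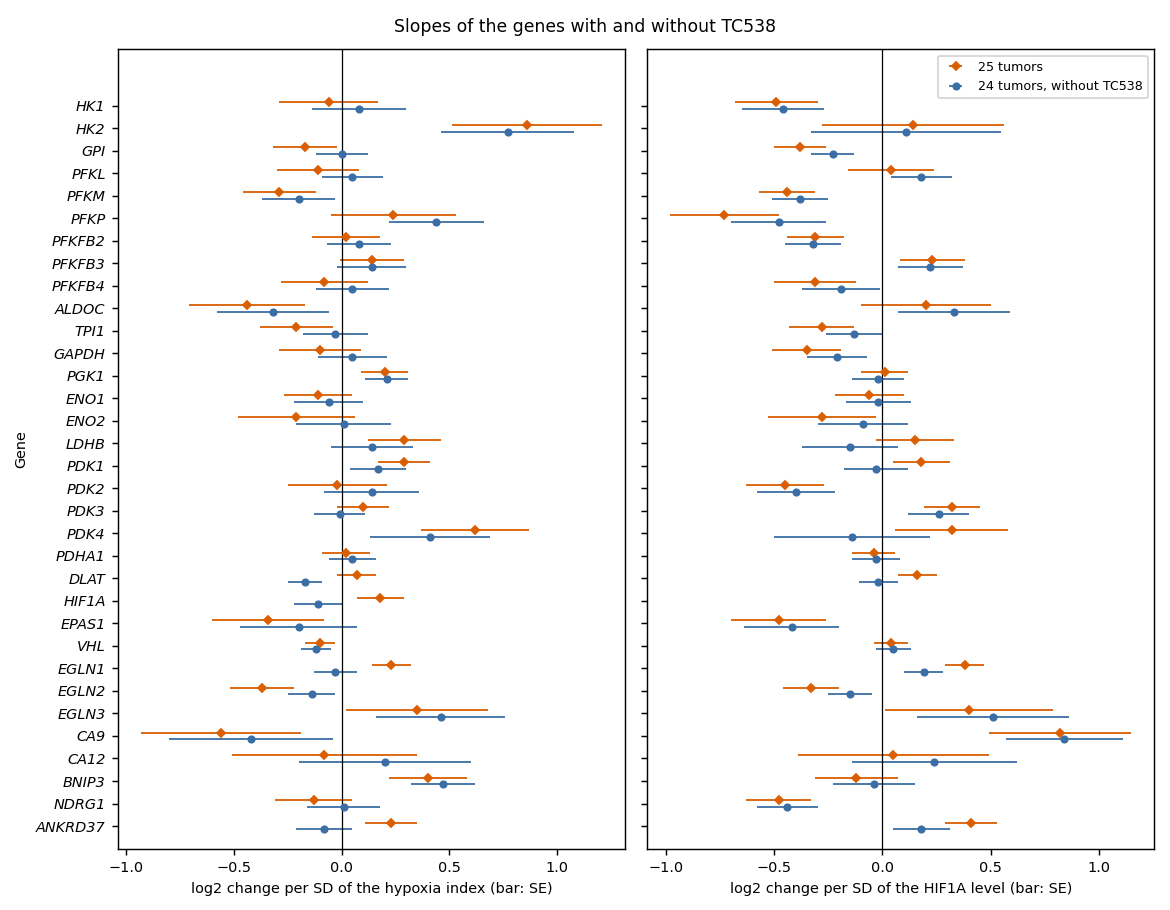
Slope of each of the 33 genes, log2 change per SD, on the hypoxia index (left) and on the level of *HIF1A* (right), with the standard error as a bar. Diamonds are the fit over 25 tumors and circles the fit over 24 tumors without TC538. On the index, *EGLN1* went from 0.23 to -0.03 and *HK2* from 0.86 to 0.77, and *HIF1A* has no slope on itself.

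*EPAS1* is expressed at high levels in endothelium. On its level *CA9* fell (-0.88 ± 0.25, adjusted p = 0.0475), the single call among 32 members (3.12%), where 3.54% of all genes passed, 2.23% rising and 1.31% falling. Without TC538 the value was -0.91 ± 0.25 (adjusted p = 0.0424), and 3.64% of all genes passed. The call was lost without TC22 and TC1979, the 2 tumors with the highest *EPAS1* levels (-0.95, adjusted p = 0.0686). *HK1* (0.62 ± 0.18, adjusted p = 0.0567) lay just outside the threshold. In the reverse fit, with *CA9* as the covariate, *EPAS1* did not pass (-0.50 ± 0.27, adjusted p = 0.647). All 5 endothelial markers tested (*PECAM1*, *VWF*, *CDH5*, *KDR* and *TEK*) rose with *EPAS1*, with slopes between 0.77 and 0.95, and their summed level ran from 11.99 to 14.82 over the 25 tumors. The C-cell marker *SCG2* rose as well, in both fits. The part of these markers in the *CA9* result was not tested. The slope of *CA9* was positive on *HIF1A* and negative on *EPAS1*, while the relation of *HIF1A* and *EPAS1* to each other was not past the threshold (r -0.36, permutation p = 0.0781, rho -0.33, permutation p = 0.105).

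Several enzymes moved with *GAPDH*, in a fit added after the values had been seen. Over the 25 tumors *GAPDH* ran from 12.13 in TC538 to 15.39 in TC1744. *TPI1*, whose product feeds GAPDH, was at 10.44 in TC538 and 13.35 in TC1744, and its order followed that of *GAPDH* closely (r 0.94, rho 0.94, permutation p = 1e-05 for both, the smallest these permutations can give, and r 0.92 without TC538 and TC1088). *GPI* had r 0.84 and rho 0.80 with *GAPDH* (permutation p = 1e-05 for both), and r 0.77 without the same pair of tumors. The pairs with *GAPDH* were picked after the values had been seen, and 0.94 was the highest rho of all 528 pairs of members. Their permutation p-values do not allow for that choice, nor do the edgeR adjusted p-values with *GAPDH* as the covariate. Both are given as a description only. Both genes kept their slope without TC538, *TPI1* at 0.76 ± 0.08 with it (adjusted p = 4.18e-06) and 0.68 ± 0.07 without it (adjusted p = 5.40e-06), and *GPI* at 0.55 ± 0.09 (adjusted p = 1.87e-04) and 0.46 ± 0.08 (adjusted p = 0.00156). Reads of *GAPDH*, *TPI1*, *ENO1* and *PGK1* can be shared with processed pseudogenes, so their counts are uncertain to that extent.

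In all 11 of 32 members passed with *GAPDH* (34.4%), beside 36.6% of all genes, so the share of members was near the background. By direction, 9 rose, where 14.8% of all genes rose, and 2 fell, where 21.7% fell. The 9 were *TPI1*, *GPI*, *PFKM* (0.56 ± 0.12), *EGLN2* (0.49 ± 0.11), *ENO1* (0.46 ± 0.13), *PFKP* (0.76 ± 0.21), *PFKL* (0.55 ± 0.17), *HK1* (0.50 ± 0.17) and *PDK2* (0.45 ± 0.17), of which 7 are enzymes of the glycolytic chain. *PDK3* (-0.46 ± 0.10, adjusted p = 0.00149) and *PDK1* (-0.31 ± 0.12, adjusted p = 0.0431) fell. Without TC538 there were 8 calls beside 22.9% of all genes: *HK1*, *PDK2* and *PDK1* no longer passed, and the other 8 did. The macrophage marker *CSF1R* rose with *GAPDH* in the fit with TC538 and did not pass without it. *PGK1*, which takes the product of GAPDH, had a slope of 0.18 ± 0.11 (adjusted p = 0.194) and *LDHB* one of -0.16 ± 0.18 (adjusted p = 0.503). Of the 5 further HIF targets in the table (*CA9*, *CA12*, *BNIP3*, *NDRG1* and *ANKRD37*) 0 passed, 1 of them, *BNIP3*, at an unadjusted p below 0.05 (0.35 ± 0.17, adjusted p = 0.0998). Among the 11 HIF targets of the index, *SLC2A1* rose (0.33 ± 0.13, adjusted p = 0.0458). *KDM3A* (-0.39 ± 0.13, adjusted p = 0.0240) and *ERO1A* (-0.35 ± 0.13, adjusted p = 0.0390) fell. Without TC538 the index genes that passed were *SLC2A1* (adjusted p = 0.0456) and *DDIT4* (adjusted p = 0.0398), both rising.

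**Figure D4:**
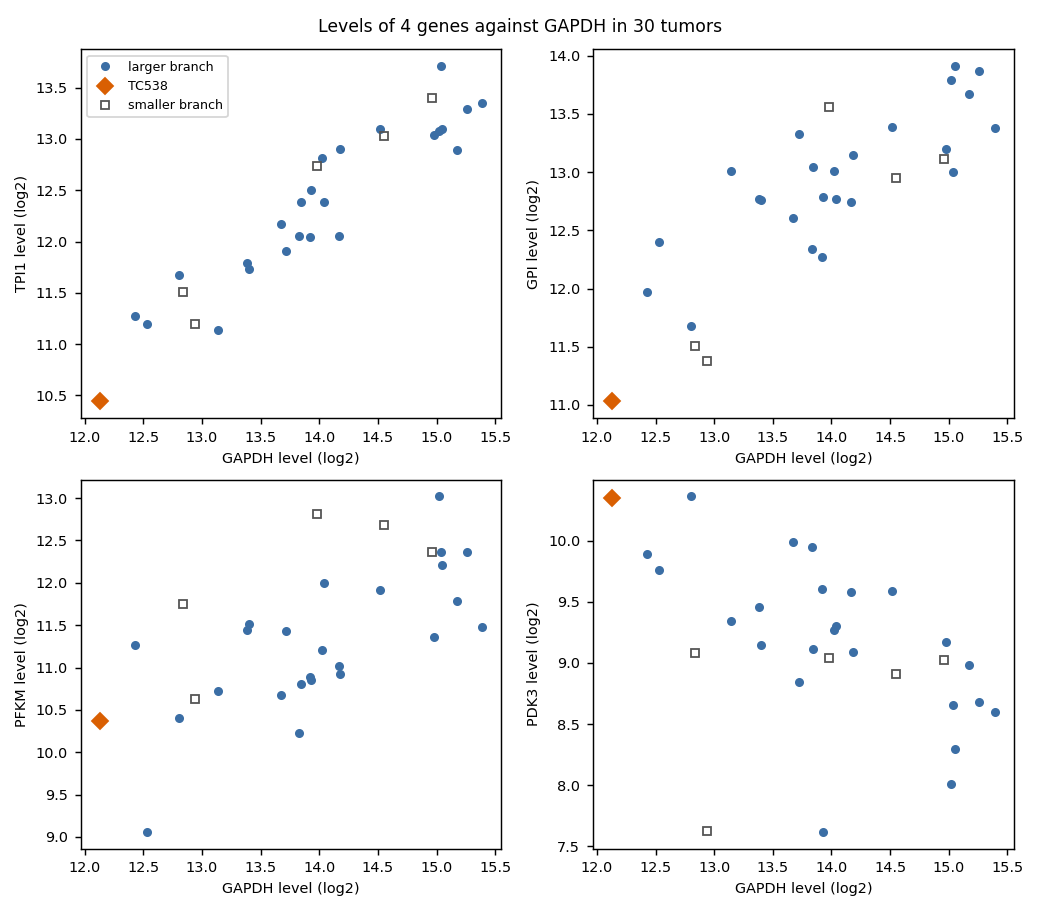
Levels of *TPI1*, *GPI*, *PFKM* and *PDK3* against the level of *GAPDH*, log2(normalized count + 1), in the 30 tumors. Circles are the larger branch, open squares the smaller branch and the diamond TC538. *TPI1* lies in a narrow rising band (rho 0.94), *PDK3* falls (rho -0.71), and TC538 holds the lowest *GAPDH* level, 12.13.

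*PDK1* was fitted in the same way because it heads 3 of the pairs described next. With it 1 member rose, *LDHB* (0.64 ± 0.15, adjusted p = 0.00171), and 4 fell, *ALDOC* (-0.78 ± 0.25, adjusted p = 0.0175), *EPAS1* (-0.66 ± 0.19, adjusted p = 0.00786), *EGLN2* (-0.38 ± 0.12, adjusted p = 0.0170) and *TPI1* (-0.37 ± 0.14, adjusted p = 0.0365). Of all genes 23.9% rose and 17.2% fell, 41.1% together, so 5 of 32 members was below the background share. Without TC538 *TPI1* no longer passed (adjusted p = 0.104), *LDHB* had 0.57 ± 0.16 (adjusted p = 0.00902), and 29.8% of all genes passed. Without TC1088 *TPI1* did not pass either (adjusted p = 0.0572) and *PGK1* did (0.26 ± 0.10, adjusted p = 0.0463). With *EPAS1* as the covariate, *PDK1* did not pass (-0.41 ± 0.14, adjusted p = 0.0995). Of the 11 index genes, *P4HA1*, *KDM3A*, *ERO1A* and *INSIG2* rose and *ANGPTL4* fell with *PDK1*, both with and without TC538. *DDIT4* also fell in the fit without TC538. Among 4 C-cell markers tested *CALCA* and *SCG2* fell with *PDK1*, and among 5 endothelial markers *VWF* and *CDH5*, in both fits. The fibroblast markers *COL1A1* and *COL1A2*, the macrophage marker *CSF1R*, the muscle marker *MYH7* and the proliferation marker *MKI67* fell in both fits too, while the macrophage marker *MSR1* rose and the adipocyte marker *PLIN1* fell in the fit with TC538 and did not pass without it. The part of these markers in the result was not tested.

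The first genes of the chosen pairs gave further fits, added after the values had been seen, with 32 other members each. With *HK1*, *PDK2* rose (0.65 ± 0.15, adjusted p = 0.0152) and *CA9* fell (-0.89 ± 0.22, adjusted p = 0.0321), where 2.01% of all genes passed, 0.652% rising and 1.36% falling. Both also passed without TC538 (*PDK2* 0.65 ± 0.15, adjusted p = 0.0218, *CA9* -0.92 ± 0.23, adjusted p = 0.0313), beside 2.09% of all genes, and without TC1088 (adjusted p = 0.0370 and 0.0389). In the reverse fit, with *CA9* as the covariate, *HK1* did not pass (-0.50 ± 0.20, adjusted p = 0.480). TC640, the tumor with the most *CA9* (10.21), had the lowest *HK1* of the larger branch (10.05), and TC1953 (*CA9* 8.60) had 10.31, but TC2110, next in *CA9* (9.30), had *HK1* at 12.68, above its median.

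With *ENO1*, 5 members rose and 0 fell, beside 4.78% of all genes rising and 4.98% falling (9.77% together). *ALDOC* had the steepest slope (0.97 ± 0.22, adjusted p = 0.00632), from 4.70 in TC1088, where *ENO1* was lowest in the larger branch (10.54), to 12.54 in TC1869, where it was highest (14.67). *HK1*, *TPI1*, *GAPDH* and *PDK2* had slopes from 0.47 to 0.67. Without TC538 5 members passed beside 14.8% of all genes. Without TC1088, which was lowest in *ENO1* and *ALDOC*, 2 of the 5 passed beside 5.66% of all genes, *ALDOC* (0.59 ± 0.16, adjusted p = 0.0328) and *TPI1* (0.44 ± 0.13, adjusted p = 0.0417). The follicular cell marker *DIO1* and the macrophage marker *CD68* rose with *ENO1* in both fits, with and without TC538, and their part in the result was not tested.

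With *PFKM*, 5 members rose, *GPI*, *TPI1*, *GAPDH*, *ENO2* and *EGLN2*, and *PDK3* fell, where 4.71% of all genes rose and 8.17% fell (12.9% together). Without TC538 *ENO2* no longer passed (adjusted p = 0.0643) and the other 5 did, beside 5.63% of all genes. Without TC1088 all 6 passed, beside 14.8%. *GPI*, *TPI1*, *EGLN2* and *PDK3* had also passed with *GAPDH*, in the same tumors. With *PFKL*, 4 members passed beside 21.6% of all genes (*TPI1*, *GAPDH* and *BNIP3* rising, *DLAT* falling), and with *EGLN1* 2 passed beside 8.24% (*HIF1A* and *ANKRD37*, rising). Without TC538 both came to 0, beside 0.0609% and 0.0886% of all genes, with 7 and 3 members at an unadjusted p below 0.05. The slope of *BNIP3* on *PFKL* was 0.48 ± 0.14 with TC538 and 0.58 ± 0.15 without it (adjusted p = 0.140), that of *TPI1* 0.54 and 0.35, that of *GAPDH* 0.60 and 0.42, and that of *DLAT* -0.23 and -0.07. On *EGLN1*, *ANKRD37* had 0.51 and 0.32 and *HIF1A* 0.41 and 0.23. The endothelial markers *PECAM1* and *CDH5* and the adipocyte marker *PLIN1* fell with *EGLN1* in the fit with TC538, and their part was not tested. With *PFKFB3* 0 passed beside 1.83% (3 at an unadjusted p below 0.05), and 1, *EGLN3* (1.02 ± 0.27, adjusted p = 0.0482), beside 1.92% without TC538. With *CA9* 0 passed beside 0.105% (2 at an unadjusted p below 0.05), and 0 beside 0.116% without TC538. DESeq2 was not run for these fits.

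Of 20 pairs of isoforms or partners chosen for relations, 15 had both genes in the table, and 7 pairs with *GAPDH* were added later, 22 in all. Of the 15, 0 had an edgeR slope with an adjusted p below 0.05, and 3 had a Pearson correlation with a permutation p below 0.05 (*PFKM* with *PFKP*, *PDK1* with *PDK3* and *EGLN1* with *EGLN2*). The strongest was *PFKM* with *PFKP* (r 0.54, permutation p = 0.00516, rho 0.46, permutation p = 0.0200, edgeR adjusted p = 0.0694), with r 0.36 (permutation p = 0.0896) once TC627 and TC1979, the 2 tumors farthest from the median of *PFKM*, were left out. *EGLN1* and *EGLN2* had r -0.43 (permutation p = 0.0399) but rho 0.01 (permutation p = 0.967), and r 0.07 without TC538 and TC640. *HIF1A* and *VHL* had r 0.21 (permutation p = 0.315). As a description without a test, the median rho was 0.32 over the 36 pairs of 9 core enzymes (*GPI*, *PFKL*, *PFKM*, *PFKP*, *ALDOC*, *TPI1*, *GAPDH*, *PGK1* and *ENO1*), 32 of them positive. This list was not fixed beforehand and leaves out the enzymes *HK1*, *HK2*, *ENO2* and *LDHB*, so the value holds for this choice only. The pairs run with these had rho -0.12 (*HK1* with *HK2*), 0.05 (*ENO1* with *ENO2*) and -0.12 (*GAPDH* with *LDHB*). Over all 528 pairs of members, which include the 36, the median was 0.05, from -0.79 to 0.94. These values share libraries and scaling, and none was computed over all genes.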

How the data were processed

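Total RNA libraries (Zymo-Seq RiboFree) of 30 primary tumors were sequenced by the authors as paired-end reads, mapped to CanFam3.1 with STAR and counted per gene, and the deposited values are raw counts, with no normalization. The strand setting of the counting is not given in the sources used here, so overlapping genes are uncertain. All 30 columns were matched to samples by library name. The labels give 1 group, and the tumors are separate samples.

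Levels are log2(count / median-of-ratios size factor + 1), with size factors over 15611 genes. Slopes were fitted with edgeR 4.0.16 in R 4.3.3 (TMM, quasi-likelihood, Benjamini-Hochberg adjustment over all genes tested, 10 counts or more required in 5 or more tumors), with the covariate gene or index genes left out of the tested table. The adjustment was made within each fit and not over the covariates. Whether a pair passed could depend on which of its genes was the covariate. DESeq2 1.42.0 was an alternative. Correlations used 100000 two-sided permutations in scipy 1.17.1 (Python 3.11.15, numpy 2.4.6, pandas 2.3.3), and figures matplotlib 3.10.9. The index used 11 of 12 listed genes. On simulated counts with known slopes on the index, edgeR recovered 72 of 99 genes at a slope of 1 and 20 of 99 at 0.5, with 3 false calls among 17656 genes.

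The members and lists were chosen with earlier results of these data known. Every member in the table is accounted for, with single tumors named for those with an SD above 1 or in a chosen pair. Other tumors and genes named beyond this rule, and the fits on *GAPDH*, *PDK1* and the other first genes of pairs, were chosen after the values were seen. Alternatives were other tests, scalings, filters, pseudocounts, index definitions and sets of tumors. Results of some genes of the other lists are not reported here.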

Additional observations from a re-analysis of the deposited data

How the results depend on the processing

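Over the 25 tumors 3252 genes passed with the index (1843 rising, 1409 falling). The count was 38 without TC538, 11 without TC538 and TC2288, 889 with TMM-scaled levels (572 rising, 317 falling), 2116 with an unscaled index and 333 with the total count as a covariate (70 rising, 263 falling). The cause of the last 3 was not tested. Members called with the index went from 0 to 1 with DESeq2, 2 without TC1088 (*PDK4* and *PDK1*) and 3 without *VEGFA* in the index (*PDK4*, *PDK1* and *EGLN2*). The slope of *EGLN1* on the index reversed from 0.23 to -0.03 without TC538 and to -0.05 without TC538 and TC2288. Members called with *HIF1A* went from 6 to 10 with DESeq2, to 0 without TC538 and to 0 without TC538 and TC1979. Those called with *EPAS1* went from 1 to 3 with DESeq2, 2 with TMM-scaled levels, 0 with no count filter (*CA9* adjusted p = 0.0532) and 0 without TC22 and TC1979 (adjusted p = 0.0686). Genes called with *GAPDH* went from 6621 to 4140 without TC538, 3644 without TC538 and TC1088 and 2641 with the total count as a covariate, where members went from 11 to 7. *TPI1*, *GPI*, *PFKM*, *PFKP*, *PFKL*, *EGLN2* and *PDK3* passed with *GAPDH*, a covariate chosen after the values had been seen, in all 9 alternatives run. With *PGK1*, 0 members passed in all 7 run. Members with an SD above 1 went from 15 to between 13 and 15.

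No paired analysis was possible because the labels give 1 group. Leaving out a tumor also lowers the number of tumors fitted. The fits on *PDK1* and the other first genes of pairs were repeated without TC538 and, for *HK1*, *PFKM*, *ENO1* and *PDK1*, without TC1088.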
